A study of Mus musculus with 16 samples.

Results

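Sialyltransferases are the Golgi enzymes that end a glycan with sialic acid, and 10 of the 20 sialyltransferase genes on the array are described here, out of 22328 named genes. They are St6galnac2, St6galnac4, St6galnac6, St6gal1, St8sia1, St8sia4, St3gal1, St3gal2, St3gal4 and St3gal6, taken by gene symbol, each read at its brightest probe. The 10 were selected on their ratio and channel levels in these same extracts, so their values and adjusted p-values describe these extracts and are no independent evidence. The RNA came from lymph node cells of mice that carried 1 copy of the OT-1 T cell receptor transgene (OT-1het), which recognises the ovalbumin peptide SIINFEKL, and lacked Rag (Rag-/-), and both genotypes shared this background. WT extracts had this background alone, and the other genotype was labelled Lck-/-, for loss of the Src-family kinase Lck, which starts signalling at the T cell receptor. The Lck signal of these extracts was lower than in WT but still among the bright ones (values below). Whether Lck was fully lost cannot be told from this signal, so Lck-/- is used here as the label's name. Each difference is between the extracts labelled Lck-/- and WT. All cells received 100 nM SIINFEKL for 24 h and, for the final 10 min, 100 µg/ml cycloheximide, which halts ribosomes on their mRNAs. Lysates freed of nuclei were spun on sucrose gradients, of which fractions 1 to 5 gave the sub-polysomal RNA and fractions 6 to 10 the polysomal RNA, and 1.5 µl of each was labelled. There were 4 extracts of each genotype, each on 2 arrays with the dyes swapped. Age, sex and the number of animals behind an extract are not given in the sources used here, nor is the meaning of OFF, which the series title adds to Lck-/-.

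Each sialyltransferase takes the activated sugar CMP-sialic acid and adds it to a particular acceptor: the ST3Gal and ST6Gal enzymes to galactose, the ST6GalNAc enzymes to N-acetylgalactosamine, and the ST8Sia enzymes to another sialic acid. On T cells the caps change as cells respond to antigen. Activated CD8 T cells are known to lose sialic acid from O-glycans of CD43 and CD45, which exposes the galactose that the lectin PNA binds. Sialic acid also sets binding by selectins, by Siglec receptors and by galectins, which are hindered when galactose is capped.

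The probes decide what is measured, so the first 30 of the 60 bases of the probes on which the results turn are shown 5′ to 3′, in lower case and with nothing marked, as the scanner files give them. Positions are those given for the probe on build mm9. For the St6galnac2 probe and the second St6gal1 probe the given span is not 60 bases long. St6galnac2 has a single probe, at chr11:116538040-116538094 on the minus strand.
St6galnac2: acattagtccttgtcaccaacaggaaactg
St6gal1 has a brighter probe at chr16:23360037-23360096 and a second at chr16:23358405-23358465, both on the plus strand.
St6gal1, brighter probe: tgtgggggagtaaattaataagtgtaatat
St6gal1, second probe: gaagcctactcagttactctagagtaaagt
St8sia4 is read at chr1:97484331-97484390 on the minus strand.
St8sia4: aaggaaggatgaagcttactctgtaggttc
St6galnac4 has a brighter probe at chr2:32455925-32455984 and a second at chr2:32452606-32452665, both on the plus strand, and these 2 disagreed.
St6galnac4, brighter probe: gatctgacattctcacatggacatacatgc
St6galnac4, second probe: tttgcatgagcaggctccaaggagcgccca
Stretches of 15 bases of the brighter St6galnac4 probe occurred in probes of 4 other genes on the same strand, and those of its second probe in a probe of 1 other gene. The St8sia4 probe shared such a stretch with 1 other gene on the same strand and 1 on the opposite strand, and the probes of St6galnac2 and St6gal1 shared none.

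Values are log2 intensities of a channel, or the normalised log2 ratio of polysomal over sub-polysomal RNA, in which loess puts the typical mRNA of each array near 0. The mean of both fractions stands for the amount of RNA, and a shift between fractions can move it. Of 55681 probes 14619 to 50776 per array passed as well above background for polysomal RNA and 12531 to 30976 for sub-polysomal RNA, and no spot was saturated. All 8 T cell markers on the array were detected in both genotypes, among them Cd3e and Cd8a. Lck itself was lower in the extracts labelled Lck-/- but still bright, at 14.18 ± 0.13 (SD, n = 4) against 15.03 ± 0.21 in WT in the mean of both fractions (difference -0.85, SE 0.139, adjusted p = 0.00301). Whether its probe lies in a deleted part is not given in the sources used here. The labels call the extracts biological replicates without saying whether they came from separate animals, so the spread behind each p-value may be technical. In bulk RNA, fewer cells of a type and less RNA per cell cannot be told apart. The ratios of WT replicates 1 and 2 went against their own dye swaps (correlation of deviations from the genotype mean -0.83 and -0.81), matched each other's (0.87 and 0.94), and in the other 6 extracts the dye swaps correlated at 0.46 to 0.84. Differences of the members that were called, and those of St6galnac4, are therefore also given with these 2 dye swaps exchanged (crossed dye swaps) and without both extracts.

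Among the sialyltransferases St6galnac2 was higher in Lck-/- extracts, St6gal1 was lower, and the normalised ratio of St8sia4 was lower. The St8sia4 ratio call ended in 11 of 25 other settings, crossed dye swaps among them. In the mean of both fractions 9 of the 10 could be tested, and 1 was higher and 1 lower at an adjusted p below 0.05, beside 20.7% of all 9073 genes tested (9.34% higher, 11.3% lower). Their median difference was 0.18, against 0.04 for all genes. In the polysomal level 1 of 10 was higher and 1 lower, beside 15.0% of all genes (5.60% higher, 9.37% lower), with a median of 0.11 against 0.00 for all genes. In the sub-polysomal level 2 of 9 were higher and 1 lower, beside 19.3% of all genes (8.54% higher, 10.8% lower), with a median of 0.16 against 0.05. In the ratio 0 of 7 were higher and 1 was lower, beside 3.86% of all genes (2.81% higher, 1.05% lower), with a median of 0.01 against -0.04. With crossed dye swaps 0 of 7 were called in the ratio, beside 0.496% of all genes (41 genes higher, 0 lower). The rises include St6galnac2 in each level, which was tested only because its Lck-/- signal passed the filter, so it entered through the genotype in which it is high. As the members were chosen on these values, nothing is read from their counts against these shares.

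**Figure D1:**
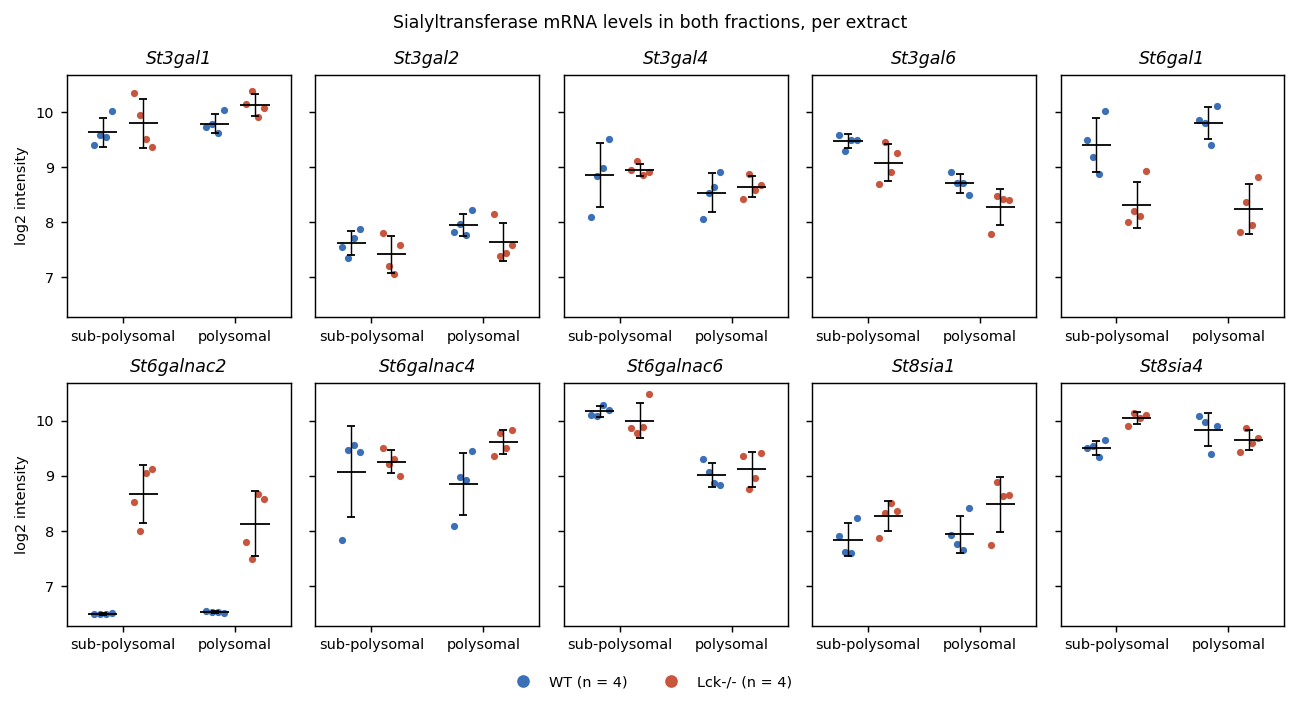
Log2 intensity of the 10 sialyltransferases in the sub-polysomal and polysomal channel, with 1 point per extract (WT blue, Lck-/- red, n = 4 each), the horizontal line at the mean and bars of 1 SD. The WT points of St6galnac2 lie near 6.5, at background, below all Lck-/- points, and those of St6gal1 in the polysomal channel lie above all Lck-/- points.

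St6galnac2 encodes an enzyme that adds sialic acid to the N-acetylgalactosamine at the root of O-glycans. Its polysomal level was 6.56, 6.53, 6.53 and 6.52 in WT replicates 1 to 4 and 7.79, 7.49, 8.68 and 8.59 in Lck-/- replicates 1 to 4. Its sub-polysomal level was 6.49, 6.49, 6.49 and 6.52 in WT and 8.52, 8.0, 9.05 and 9.12 in Lck-/-. The genotypes did not overlap in either channel, and among Lck-/- extracts replicates 3 and 4 were higher than replicates 1 and 2 in both. The WT values are those of an undetected probe. The probe was printed 10 times per array, and 0 of 80 WT spots stood well above background in either channel, against 71 polysomal and 80 sub-polysomal spots of 80 in Lck-/-. The bright group's mean was therefore set against the dimmest signal that passed as above background on each WT array. For the group means this gave at least 2.73-fold more in Lck-/- in the polysomal channel and at least 3.79-fold more in the sub-polysomal one. These bounds leave out the spread among Lck-/- extracts, whose lowest read 7.49 and 8.0, against a floor of 6.69 and 6.75. A floor set above the dimmest passing signal would make them smaller.

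The St6galnac2 comparison is given by these bounds on the means, since the WT value is a background level with hardly any spread and the gene entered the test through Lck-/- alone. Set against that background level in limma, the measured difference was 1.60 (SE 0.247, adjusted p = 0.00300) in the polysomal level, 2.17 (SE 0.220, adjusted p = 0.000418) in the sub-polysomal level and 1.89 (SE 0.227, adjusted p = 0.000796) in the mean of both. On slide 1 alone the polysomal difference was 1.60 with adjusted p = 0.0550, so the call ended there, and on slide 2 alone it was 1.60 with adjusted p = 0.00779. With slide and dye terms it was 1.60 with adjusted p = 0.000311, with crossed dye swaps 1.60 with adjusted p = 0.00594, and without both WT replicates 1 and 2 it was 1.61 with adjusted p = 0.0457. The sub-polysomal difference was 2.23 on slide 1, 2.12 on slide 2, 2.17 with crossed dye swaps and 2.17 without both WT replicates, and it was called in each. No ratio was tested, because WT had no signal in either channel. In Lck-/- the ratio was -0.73, -0.51, -0.37 and -0.53, so all 4 extracts lay on the sub-polysomal side of the typical mRNA.

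Markers of natural killer cells, which a lymph node can hold, had a higher sum in Lck-/- extracts, mostly through 1 gene. The summed level of the 4 listed markers ran from 918 to 1419 in WT and from 1916 to 5268 in Lck-/-, with 2 markers detected in WT and 4 in Lck-/-. Most of this was Eomes, a transcription factor that CD8 T cells also express, which rose by 2.06 in the mean of both fractions (SE 0.330, adjusted p = 0.00281). Without Eomes the sum ran from 315 to 380 in WT and from 360 to 571 in Lck-/-, with overlap. Of the other marker lists, the sums did not overlap for 3 mast cell markers (296 to 348 in WT, 373 to 417 in Lck-/-) and for the 8 T cell markers (88575 to 108826 and 110767 to 119427). Of these 8, Thy1 was the brightest and the only one called, at 0.44 in the mean of both fractions (adjusted p = 0.0364). Cd8b1, Cd2, Cd8a and Cd3g differed by 0.41, 0.30, 0.26 and 0.01. Cd3d, Cd3e and Cd247 went the other way, by -0.37, -0.34 and -0.09. Of the 3 macrophage and monocyte markers detected, Cd68 fell by 0.77 in the mean of both fractions (adjusted p = 0.00360). Itgam differed by -0.70 (adjusted p = 0.0720) and Csf1r by 0.28 (adjusted p = 0.509), neither of them called. The sums of this list overlapped, from 2103 to 3512 in WT and from 2090 to 3002 in Lck-/-. The red cell gene Hba-a1 differed by 1.03 (adjusted p = 0.122), with a summed red cell level of 232 to 343 in WT and 304 to 1405 in Lck-/-. The part of these markers in the St6galnac2 difference, and in the other differences, was not tested.

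St6gal1 encodes the enzyme that caps the galactose of N-glycans with sialic acid in the linkage that the B cell lectin CD22 binds. Its polysomal level was 9.87, 9.79, 9.41 and 10.12 in WT and 7.82, 8.36, 7.95 and 8.82 in Lck-/-. The lowest WT extract lay above the highest Lck-/- extract. The difference was -1.56 (SE 0.231, adjusted p = 0.00265), at -1.83 on slide 1, -1.28 on slide 2, -1.56 with slide and dye terms and -1.56 with crossed dye swaps (adjusted p = 0.00594), called in all of these, and without both WT replicates 1 and 2 it was -1.52 with adjusted p = 0.0456. The sub-polysomal level of St6gal1 was 9.49, 9.19, 8.87 and 10.02 in WT and 8.01, 8.20, 8.11 and 8.93 in Lck-/-, and here WT replicate 3 fell just below Lck-/- replicate 4. That difference was -1.08 (SE 0.260, adjusted p = 0.0166), and with crossed dye swaps -1.08 with adjusted p = 0.0271. It was -1.13 on slide 1 and -1.03 on slide 2, where the call ended (adjusted p = 0.112), and without both WT replicates 1 and 2 it was -1.13 with adjusted p = 0.0613. Without Lck-/- replicate 3 it was -1.01 with adjusted p = 0.0522, without normalization -0.73 with adjusted p = 0.0611, and with polysomal RNA in Cy3 only -1.10 with adjusted p = 0.0568.

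In the mean of both fractions St6gal1 fell by 1.32 (SE 0.235, adjusted p = 0.00470), with WT between 9.14 and 10.07 and Lck-/- between 7.92 and 8.88. This call was kept on each slide alone and on leaving out any single extract, with adjusted p up to 0.0170, with crossed dye swaps (-1.32, adjusted p = 0.00454) and without both WT replicates 1 and 2 (-1.33, adjusted p = 0.0353). The ratio was 0.37, 0.60, 0.54 and 0.09 in WT and -0.19, 0.16, -0.16 and -0.11 in Lck-/-. Its difference of -0.48 (SE 0.145, 95% interval -0.79 to -0.16) had an adjusted p of 0.101, so a smaller share on polysomes in Lck-/- was not called. The second St6gal1 probe, also printed 10 times, was well above background on 4 of 8 WT and 2 of 8 Lck-/- arrays in the polysomal channel and on 1 and 0 in the sub-polysomal channel, and it was too dim to be tested. Of its 80 polysomal spot readings per genotype, which are repeats on 8 arrays and not independent, 40 passed in WT and 20 in Lck-/-. Passing depended on the dye. With polysomal RNA in Cy5, 10, 9, 9 and 10 spots passed in WT replicates 1 to 4 and 10, 7, 2 and 0 in Lck-/-. In Cy3 at most 1 spot passed per array.

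B cells are known for high St6gal1, and Rag-/- mice have none of their own. Of 7 B cell markers 3 were detected in WT and 2 in Lck-/-, with a summed level of 888 to 976 in WT and 916 to 1064 in Lck-/-. Over the 16 levels of 8 extracts and 2 fractions, the genes most like St6gal1 among the other 9072 were P4ha2 (Pearson r = 0.965), Bnip3 (r = 0.964) and Slc2a1 (r = 0.954). These levels share arrays and the genotype difference, so the correlations describe likeness only. Among the sialyltransferases St6gal1 and St6galnac2 ran most opposed (r = -0.75).

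**Figure D2:**
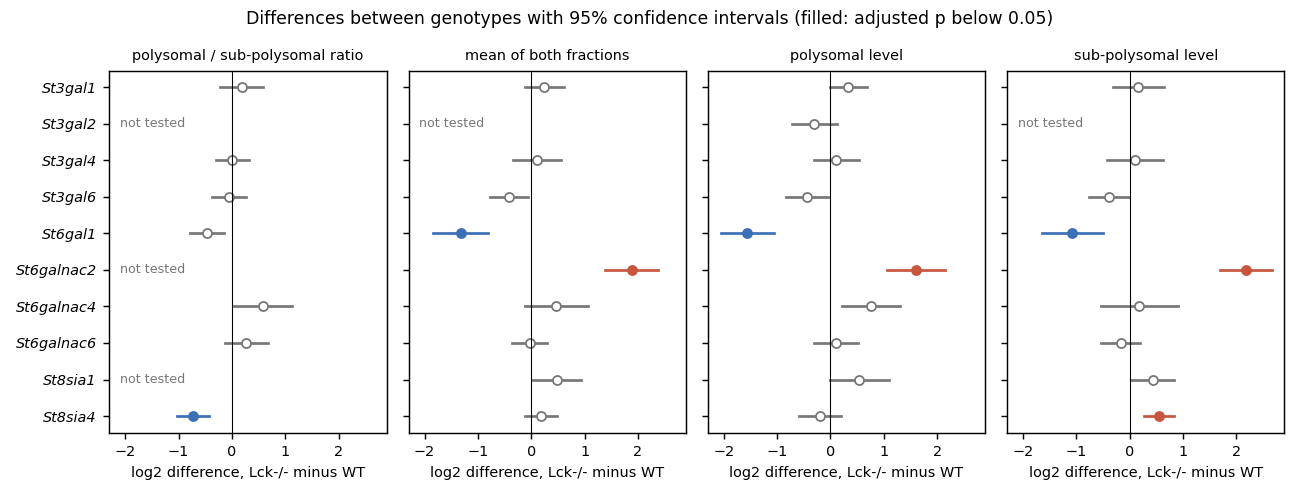
Log2 differences of Lck-/- minus WT for the 10 sialyltransferases in the ratio, the mean of both fractions and each channel, with 95% confidence intervals from limma; filled points have an adjusted p below 0.05 over all genes tested (red higher, blue lower), and "not tested" marks probes too dim for the comparison. St6galnac2 lies furthest to the right, at 2.17 in the sub-polysomal level, and St6gal1 furthest to the left, at -1.56 in the polysomal level.

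St8sia4 is a polysialyltransferase, which builds chains of sialic acid on NCAM, on neuropilin-2 and on the chemokine receptor CCR7. Its ratio was 0.58, 0.44, 0.06 and 0.25 in WT and -0.46, -0.28, -0.45 and -0.41 in Lck-/-. All WT extracts lay on the polysomal side of the typical mRNA and all Lck-/- extracts on the other side. The difference was -0.74 (SE 0.136, adjusted p = 0.0160). Its sub-polysomal level was 9.51, 9.53, 9.34 and 9.65 in WT and 9.90, 10.15, 10.06 and 10.11 in Lck-/-, again without overlap, and rose by 0.55 (SE 0.125, adjusted p = 0.0133). Its polysomal level was 10.09, 9.97, 9.41 and 9.90 in WT and 9.44, 9.87, 9.61 and 9.69 in Lck-/-, with overlap and a difference of -0.19 (95% interval -0.58 to 0.20, adjusted p = 0.506). The mean of both fractions differed by 0.18 (95% interval -0.12 to 0.48, adjusted p = 0.370).

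The St8sia4 ratio kept its sign in every setting tried, while its call did not hold in many of them. The difference was -0.65 on slide 1 (adjusted p = 0.165) and -0.82 on slide 2 (adjusted p = 0.0987), and -0.74 with slide and dye terms (adjusted p = 0.00227). With polysomal RNA in Cy5 only or in Cy3 only the adjusted p was 0.251 and 0.208. With crossed dye swaps the difference was -0.74 with an SE of 0.163 and adjusted p = 0.113, and without both WT replicates 1 and 2 it was -0.56 with adjusted p = 0.170. The call also ended without WT replicate 1 (adjusted p = 0.0586), WT replicate 2 (0.0523), Lck-/- replicate 3 (0.0582) or Lck-/- replicate 4 (0.0571). The sub-polysomal rise was 0.53 on slide 1 (adjusted p = 0.0225) and 0.56 on slide 2 (adjusted p = 0.120), and 0.55 with crossed dye swaps (adjusted p = 0.0303), and its call ended without both WT replicates 1 and 2 (0.56, adjusted p = 0.0669), with either dye orientation alone (adjusted p = 0.0682 and 0.0778) and without scaling between arrays (adjusted p = 0.0725).

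Before normalization the median ratio of the tested mRNAs was 1.34 ± 0.30 (SD, n = 4) in WT and 0.52 ± 0.26 in Lck-/-, and the difference of the means was -0.82, and the normalised values above are relative to it. With median centring, which keeps this shift, the ratio of St8sia4 differed by -1.40 and that of St6gal1 by -1.11, where the median of all genes was -0.78. In the authors' deposited table St8sia4 read 1.92, 1.75, 2.55 and 2.15 in the WT columns and 0.25, 0.24, -0.12 and 0.36 in the OFF columns, a difference of -1.91. That of St6gal1 in the authors' deposited table was -1.48, and the median difference of the 8252 genes tested there -1.15. All 10 members had a lower mean in the OFF columns of the authors' deposited table, from -0.22 for St6galnac4 to -1.91 for St8sia4, but so had 99.1% of the 8252 genes tested there. St8sia4 and St6gal1 fell by more than the median of the genes tested there and the other 8 members by less. Among these 8, St6galnac2, St8sia1 and St3gal2 did not pass the ratio filter that the genes tested had passed. St6galnac2 had no WT signal above background, so its value there is no measured fall. The numbers of these columns were not matched to the replicate numbers.

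**Figure D3:**
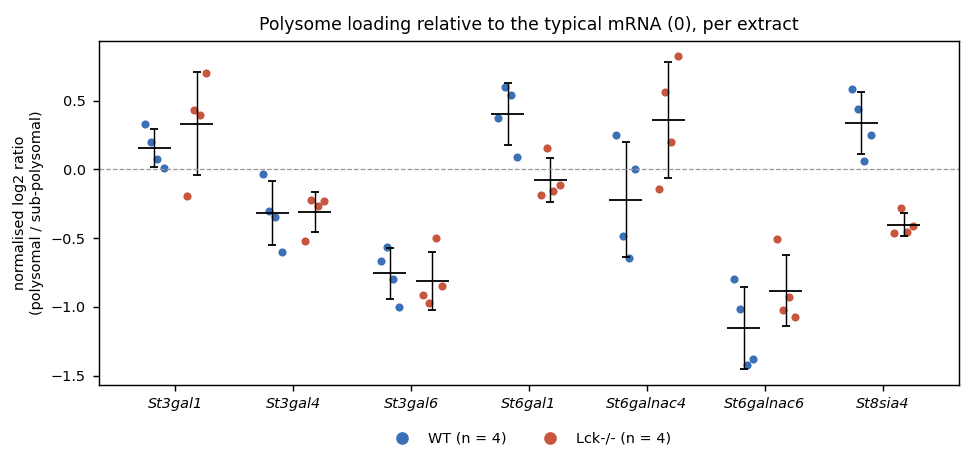
Normalised log2 ratio of polysomal over sub-polysomal RNA for the 7 sialyltransferases detected in both channels of both genotypes, with 1 point per extract (WT blue, Lck-/- red, n = 4 each), the horizontal line at the mean and bars of 1 SD; the dashed line at 0 is the typical mRNA. The points of the genotypes are apart for St8sia4 and overlap for the other 6, and those of St6galnac6 and St3gal6 lie below 0 in all extracts.

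Translation of mRNAs with a terminal oligopyrimidine start is tied to growth signals, and none of the listed starts of these genes had one. RefSeq promoter records on GRCm38.p6 gave 10 starts for 7 of the 10 genes. A start was counted when it opened with C followed by at least 4 bases that were each C or T, read on the strand of the gene. It was found in 0 of these 10 starts and in 823 of all 32851 starts in the table (2.51%). The starts of St8sia4 and St6galnac4, which had the lowest and the highest ratio difference of the 7 genes at their brightest probes, are shown with their first 30 bases, from chr1:95667565-95667594 on the minus strand and chr2:32587078-32587107 on the plus strand.
St8sia4 start: ggccagtgacgcccccgagcccagctgcag
St6galnac4 start: gcgctgctctagcttcaggcttcagaagct
A match or its absence describes these letters and nothing else.

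St6galnac4 encodes the enzyme that adds a second sialic acid to an O-glycan already capped by an ST3Gal enzyme. Its 2 probes gave opposite differences. At the brighter probe the polysomal level was 8.09, 8.98, 8.92 and 9.45 in WT and 9.37, 9.78, 9.51 and 9.83 in Lck-/-, and the difference was 0.76 (SE 0.252, adjusted p = 0.0622). The second probe read 9.10, 8.83, 9.32 and 9.39 in WT and 8.65, 8.31, 7.85 and 7.49 in Lck-/-, and its difference was -1.08 (SE 0.242, adjusted p = 0.0141). Lck-/- was mostly higher at the brighter probe, with overlap, and lower at the second, without overlap. In the mean of both fractions the brighter probe gave 0.47 (SE 0.268, adjusted p = 0.225) and the second -0.92 (SE 0.269, adjusted p = 0.0348). The ratio differed by 0.58 (SE 0.243, adjusted p = 0.212) at the brighter probe and by -0.33 (SE 0.187, adjusted p = 0.356) at the second.

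The 2 St6galnac4 probes start 3319 bases apart, and the brighter one, at base 4290 of the transcript against base 971, lies nearer to the neighbouring gene St6galnac6, whose first probe begins 7635 bases further on. On 1 of the 2 arrays of WT replicate 1 the brighter probe read 6.59 in the polysomal and 6.63 in the sub-polysomal channel, against 9.60 and 9.06 on the other, so this extract averaged 7.97 while the other 3 lay between 9.22 and 9.45. This array is 1 of the 2 dye swaps whose pairing is in doubt, and with crossed dye swaps it would belong to WT replicate 2, which would then average 7.89 and replicate 1 9.30. The brighter probe differed by 0.76 (SE 0.341, adjusted p = 0.185) in the polysomal level and by 0.47 (adjusted p = 0.256) in the mean of both fractions with crossed dye swaps. Without both WT replicates 1 and 2 these were 0.44 (adjusted p = 0.315) and 0.10 (adjusted p = 0.729), and without WT replicate 1 as labelled the mean difference was 0.14 (adjusted p = 0.494). The second probe gave -1.08 (SE 0.278, adjusted p = 0.0414) in the polysomal level and -0.92 (adjusted p = 0.0346) in the mean with crossed dye swaps. The part of the shared stretches in the difference between probes was not tested.

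**Figure D4:**
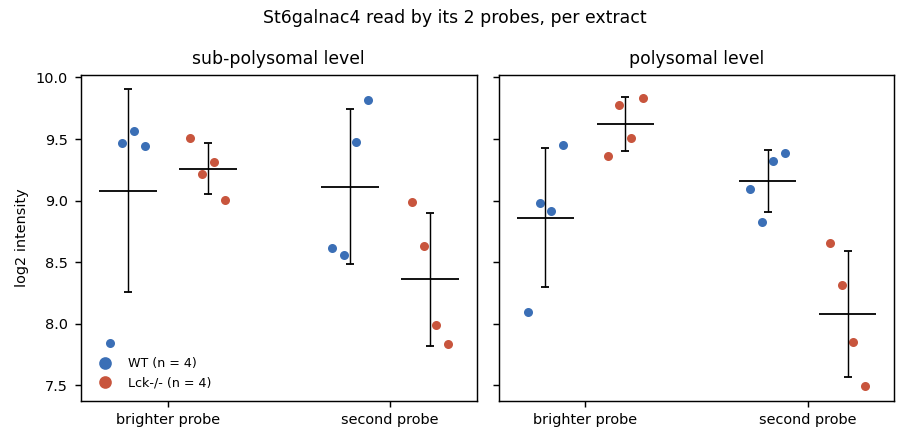
Log2 intensity of St6galnac4 at its 2 probes in the sub-polysomal and polysomal channel, with 1 point per extract (WT blue, Lck-/- red, n = 4 each), the horizontal line at the mean and bars of 1 SD. In the polysomal channel the Lck-/- points lie mostly above the WT points at the brighter probe and all below them at the second probe.

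St6galnac6 encodes an enzyme that sialylates glycolipids of the ganglioside and globoside series. Its mRNA stood on the sub-polysomal side, with ratios of -0.80, -1.01, -1.42 and -1.38 in WT and -0.50, -1.02, -0.92 and -1.07 in Lck-/-. The groups overlapped, and the difference was 0.27 (SE 0.179, 95% interval -0.12 to 0.67, adjusted p = 0.422). The mean of both fractions differed by -0.03 (95% interval -0.37 to 0.30, adjusted p = 0.898). Its second probe was above background on 1 or 2 of 8 arrays of a genotype and was not tested.

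St8sia1 makes the ganglioside with 2 linked sialic acids that starts the b series, GD3. Its mean level was 7.92, 7.69, 7.63 and 8.32 in WT and 7.81, 8.61, 8.57 and 8.51 in Lck-/-, so 3 Lck-/- extracts lay above all WT extracts and replicate 1 did not. Lck-/- replicate 1 read 7.16 on its slide 1 array and 8.47 on its slide 2 array. The difference of 0.49 (SE 0.207, 95% interval 0.03 to 0.94) was not called (adjusted p = 0.116). St8sia1 entered this comparison through Lck-/- alone, where the sub-polysomal channel passed on 8 of 8 arrays, against 5 of 8 in WT. Without Lck-/- replicate 1 the measured difference was 0.67 with adjusted p = 0.0211. On slide 1 it was 0.26 (adjusted p = 0.650) and on slide 2 it was 0.71 (adjusted p = 0.0248). For the same reason its ratio was not tested.

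The ST3Gal enzymes cap galactose in the other common linkage. St3gal1, which caps the core O-glycans of CD8 T cells, had a polysomal level of 9.73, 9.78, 9.62 and 10.03 in WT and 10.15, 10.38, 9.91 and 10.07 in Lck-/-. Its groups overlapped by a single pair of extracts, and the difference was 0.34 (SE 0.159, adjusted p = 0.171). The second St3gal1 probe gave 0.08 (95% interval -0.31 to 0.47, adjusted p = 0.819). In the mean of both fractions the 2 probes gave 0.25 (adjusted p = 0.303) and 0.10 (adjusted p = 0.665), and their ratios differed by 0.18 and -0.04, none of them called.

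St3gal6, which caps N-acetyllactosamine chains used in selectin ligands, had a mean level of 9.25, 9.0, 9.10 and 9.0 in WT and 8.25, 8.97, 8.67 and 8.83 in Lck-/-. Its Lck-/- replicate 1 read 7.79 on the slide 1 array and 8.71 on the slide 2 array. Every WT extract lay above every Lck-/- extract, by a narrow margin, as was the case for 25.9% of all genes in this comparison. The difference of -0.41 (SE 0.161, 95% interval -0.77 to -0.06) was not called (adjusted p = 0.0886), and without Lck-/- replicate 2 it was -0.51 with adjusted p = 0.0485. Its ratio was low in both genotypes, at -0.76 ± 0.19 (SD, n = 4) in WT and -0.81 ± 0.21 in Lck-/-. The polysomal groups did not overlap either, as in 22.6% of all genes, with a difference of -0.44 (adjusted p = 0.127).

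St3gal4, which acts on the same chains, ranged from 8.08 to 9.20 in WT and from 8.69 to 8.99 in Lck-/- in the mean of both fractions. Its difference was 0.10 (95% interval -0.35 to 0.55, adjusted p = 0.752), and that of its ratio 0.01 (95% interval -0.31 to 0.33, adjusted p = 0.981). St3gal2, which acts on O-glycans and on gangliosides, was dim and could be tested in the polysomal level alone. It read 7.83, 7.97, 7.76 and 8.22 in WT and 8.15, 7.39, 7.45 and 7.59 in Lck-/-, so 3 Lck-/- extracts lay below all WT extracts and replicate 1 did not. Lck-/- replicate 1 read 8.74 on its slide 1 array and 7.56 on its slide 2 array. The difference was -0.30 (SE 0.193, 95% interval -0.72 to 0.12, adjusted p = 0.311).

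Likeness among the sialyltransferases over the 16 levels was modest. The closest pair was St6galnac6 and St3gal6 (r = 0.73), followed by St6galnac4 and St3gal4 (r = 0.68) and by St6galnac2 and St8sia1 (r = 0.56). The genes most like St8sia4 were Il2ra (r = 0.800), Manba (r = 0.792) and Atp6v0a1 (r = 0.767). St3gal2 was not compared, since it could not be tested in the mean of both fractions.

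Of the 10 sialyltransferases outside the description 7 were near background, namely St6gal2, St6galnac3, St6galnac5, St8sia2, St8sia3, St8sia5 and St8sia6, each above background on at most 2 of 8 arrays of a genotype and channel. The other 3, St3gal3, St3gal5 and St6galnac1, were tested in all 4 comparisons and 0 were called by limma, with an unadjusted p below 0.05 in 3 of these 12 tests. St3gal5, which makes the ganglioside GM3 from which others are built, differed by -0.11 in the mean of both fractions (95% interval -0.56 to 0.34, adjusted p = 0.732). St3gal3 differed by 0.41 (SE 0.146, adjusted p = 0.0665). The brighter St6galnac1 probe shared stretches of 15 bases with probes of 12 other genes on the same strand, and its sub-polysomal level spread from 8.40 to 13.12 over the WT extracts, so its values need not come from that gene.

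Genes around the sialyltransferases were taken from lists chosen for their roles. Their differences use the dye swaps as labelled and are not given with crossed dye swaps. Over all genes, crossed dye swaps lowered the share called from 19.3% to 10.9% in the sub-polysomal level and from 15.0% to 6.77% in the polysomal level. In the mean of both fractions it went from 20.7% to 18.2%, and in the ratio from 3.86% to 0.496%. Calls close to the threshold of 0.05 may not hold. Of 6 genes that make and carry the sialic acid donor, all tested, 0 were called by limma in the mean of both fractions (2 at an unadjusted p below 0.05), beside 20.7% of all genes. In the sub-polysomal level Cmas, which makes CMP-sialic acid, rose by 0.53 (SE 0.169, adjusted p = 0.0498). Of 7 genes of sialic acid removal 3 were tested in the mean, where Neu1, the lysosomal sialidase, rose by 0.56 (SE 0.132, adjusted p = 0.0146), and Neu1 rose in the polysomal level by 0.69 (SE 0.156, adjusted p = 0.0151). In the ratio 0 of the 8 genes tested in these 2 lists were called by limma, and 0 had an unadjusted p below 0.05.

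The lists of enzymes that build the acceptors are given beside the 20.7% of all genes called in the mean of both fractions. Of 10 N-glycan genes tested there 1 was higher and 0 were lower, namely Mgat1, the enzyme that opens the way to complex N-glycans, by 0.62 (SE 0.177, adjusted p = 0.0311). B4galt1, which adds the galactose that St6gal1 caps, was called in the sub-polysomal level alone, at 0.51 (SE 0.159, adjusted p = 0.0451). Of 9 O-glycan genes tested 0 were higher and 1 was lower, Galnt3, an N-acetylgalactosaminyltransferase that starts O-glycans, which fell by 0.68 (SE 0.134, adjusted p = 0.00669). In the sub-polysomal level Galnt1 and Galnt4, which also start O-glycans, rose by 0.43 and 0.60 (adjusted p = 0.0384 and 0.0128), and Galnt3 fell by 0.52 (adjusted p = 0.0163).

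Of 4 glycolipid genes tested in the mean of both fractions 2 were higher, beside 20.7% of all genes called. Ugcg, which makes the glucosylceramide at the base of gangliosides, rose by 0.88 (SE 0.157, adjusted p = 0.00479), from 9.72 ± 0.20 (SD, n = 4) in WT to 10.60 ± 0.25 in Lck-/-, without overlap. B4galt5, which turns it into lactosylceramide, rose by 0.54 (SE 0.155, adjusted p = 0.0321). B3galt4, which extends gangliosides, fell in the polysomal level by 0.62 (SE 0.171, adjusted p = 0.0333), where 2 of 4 glycolipid genes were higher and 1 was lower, beside 15.0% of all genes called. No gene of the fucosyltransferase and selectin ligand list was called by limma in any of the 4 comparisons, and 0 had an unadjusted p below 0.05, with 2 of 8 tested in the mean and 3 in the polysomal level.

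Among proteins known to carry sialic acid 11 of 12 were tested in the mean of both fractions. Of these 3 were higher and 1 was lower, beside 20.7% of all genes called (9.34% higher, 11.3% lower), and nothing is read from this count. Spn, which encodes CD43, rose by 0.61 (SE 0.152, adjusted p = 0.0185), Thy1 by 0.44 (SE 0.132, adjusted p = 0.0364) and Nrp2, the neuropilin that St8sia4 polysialylates, by 0.72 (SE 0.194, adjusted p = 0.0261). Cd5 fell by 0.63 (SE 0.149, adjusted p = 0.0150). Ptprc, which encodes CD45, differed by 0.35 (SE 0.157, adjusted p = 0.133), and Ccr7 by 0.30 (SE 0.153, adjusted p = 0.182). Of 11 genes that bind sialic acid 3 were tested in the ratio, and 1 was called, beside 3.86% of all genes. This was Siglech, at 1.15 (SE 0.258, adjusted p = 0.0346), but its brightest probe shared stretches with probes of 15 other genes on the same strand. In the sub-polysomal level 4 of these 11 were tested, and 0 were higher and 2 lower, beside 19.3% of all genes called. Selp, the selectin of platelets and endothelium, was 1 of the 2 and fell by 0.83 (SE 0.183, adjusted p = 0.0114).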

How the data were processed

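RNA of 8 extracts was measured on 16 Agilent 2-colour arrays. The scanner output was deposited as intensity (spot, background and processed values); per the file headers it came from version 10.7.3.1 of Agilent's Feature Extraction. Deposited flags for background, saturation and outlier pixels are of unit other. The authors also deposited a table of log2 ratios, polysomal over sub-polysomal. The submitters' processing notes name limma, and how the ratios were normalised is not given in the sources used here.

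In R 4.3.3 with limma 3.58.1 (and 1.17.8 of the data.table package), mean intensities were corrected with normexp (offset 50), normalised within arrays by loess (controls and outlier spots weighted 0), and scaled between arrays by Aquantile. The 2 dye orientations of each extract were averaged. Of 55681 probes 31381 were named from RefSeq, giving 22328 genes, each read by its brightest probe. A probe with several spots counted as well above background when at least 50% of them did. Genes were tested in the ratio if both channels passed on 6 or more of the 8 arrays in both genotypes, and in a level if its channel (for the mean, both) passed in at least 1 genotype. Linear models with empirical Bayes gave Lck-/- minus WT, with SE moderated and p-values adjusted by Benjamini-Hochberg over all genes tested (threshold 0.05). The procedure was tested on simulated data. The number of extracts limits the precision.

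The members, gene lists and settings were chosen with earlier results of these data known. Named genes are the 20 of the family, Lck, up to 3 called genes per list and direction, and the 3 most like St8sia4 and St6gal1. Slide, dye, probe, filter, normalization, extracts and the authors' ratios were varied. The second brightest probe, alone and with crossed dye swaps, was added after seeing the data.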

Additional observations from a re-analysis of the deposited data

Results flagged for a closer look

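In 8 of 70 groups of 4 extracts a single extract stood apart from the other 3 by more than Dixon's 95% limit, where chance gives about 1 in 20. St6galnac4 at its brighter probe was low in WT replicate 1, at 7.97 in the mean of both fractions (others 9.22 to 9.45) and at 7.85 in the sub-polysomal level (others 9.44 to 9.56), through 1 array whose dye-swap pairing is in doubt, and with crossed dye swaps the low extract would be WT replicate 2, at 7.89 in the mean of both fractions. St8sia4 was low in WT replicate 3 in the mean of both fractions, at 9.37 (others 9.75 to 9.80). Lck-/- replicate 1 stood apart for 3 genes: St8sia1 at 7.81 in the mean of both fractions (others 8.51 to 8.61), St3gal6 at 7.79 in the polysomal level (others 8.40 to 8.48) and St3gal4 at -0.52 in the ratio (others -0.26 to -0.22). For all 3 the low reading came from 1 array of this extract, on slide 1 with polysomal RNA in Cy5. That array and its dye swap read 7.16 and 8.47 for St8sia1, 7.11 and 8.47 for St3gal6, and -0.95 and -0.10 for St3gal4. St6galnac6 was high in Lck-/- replicate 4 in the sub-polysomal level, at 10.48 (others 9.78 to 9.88). St6galnac2 in WT replicate 4 read 6.52 in the sub-polysomal level (others 6.49), where 0 of 80 WT spots stood well above background. The causes were not tested.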

How the results depend on the processing

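The number of sialyltransferases called depended on the processing, most of all in the ratio, and precision was limited by 4 extracts a genotype and by dim probes. In the ratio (1 called of 7, beside 3.86% of all genes) the count was 6 in the authors' ratios (90.3% of all genes called), 2 with median centring (56.7%), 3 without normalization (72.4%), 2 without a filter (0.914%) and 3 with each of the authors' columns centred (8.82%). It was 0 with polysomal RNA in Cy5 only, in Cy3 only, on slide 1 only, on slide 2 only, with crossed dye swaps and without both WT replicates 1 and 2. In the authors' ratios 3 differences turned to called falls, St6galnac6 at -0.76, St3gal1 at -0.93 and St3gal4 at -0.72, where the median of all genes was -1.15. At its second probe, chosen after seeing the data, St6galnac4 turned to -0.92 in the mean of both fractions and -1.08 in the polysomal level, the same with crossed dye swaps, where the ratio count was 0. In the polysomal level (2 called) the count was 4 without normalization and 1 on slide 1 only. In the sub-polysomal level (3 called) it was 1 with polysomal RNA in Cy3 only, 1 on slide 2 only and 1 without both WT replicates 1 and 2. In the mean of both fractions it was 2 or 3 in every setting tried. Leaving out each extract in turn gave 0 to 1 in the ratio, 2 to 4 in the polysomal level, 2 to 3 in the sub-polysomal level and 2 to 3 in the mean. The mean call of St6gal1 held in all 24 settings tried. That of St6galnac2 did too, but it entered through Lck-/- alone and its WT value was a background level, so this is no support. Some settings, such as median centring and the second brightest probe, could not change the mean difference of either gene. The causes were not tested.

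Over all genes the ratio called 232 rises and 87 falls, while median centring gave 32 and 4656, no normalization 40 and 5940, the authors' ratios 25 and 7427, and their centred columns 441 and 287. With crossed dye swaps it called 41 and 0. The polysomal level called 576 and 964, against 51 and 2180 with median centring (median of all genes -0.31), and the sub-polysomal level 829 and 1044, against 3548 and 330 (median 0.36). On leaving out 1 or 2 extracts or taking a slide or a dye alone, the share of all genes called went down to 0.363% in the ratio, 9.0% in the mean, 0.884% in the polysomal level and 1.82% in the sub-polysomal level.

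Replicate numbers are shared by both genotypes. Deviations from the genotype means correlated between samples of the same number at -0.29 to 0.48, and not every sample matched its own number best, so the numbers were not taken as pairs. With a replicate block the counts were 1 in the ratio, 2 in the mean, 3 in the polysomal level, where St6galnac4 was added (adjusted p = 0.0283), and 3 in the sub-polysomal level.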
